A study of Mus musculus with 3 samples.

Results

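The genes described here are 10 genes that newborn neurons switch on as they leave the cell cycle and extend an axon: Sox4, Sox11, Nhlh1, Nhlh2, Dcx, Tubb3, Stmn1, Stmn2, Gap43 and Elavl3. They were taken by symbol from the 49585 genes listed in each deposited table, and each of the 10 symbols had 1 row. The data are RNA sequencing libraries of total RNA from flash-frozen midbrain of C57BL/6 mice on postnatal day 3, with 1 wild-type (WT) library and 2 libraries whose genotype is given as FGR. The abbreviation FGR is not spelled out in the labels, which also name no allele, treatment, litter or number of animals per library. The depth by deposited counts was 52874311 for WT, 58444481 for FGR replicate 1 and 46240262 for FGR replicate 2.

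Young neurons are made from dividing progenitors through a cascade that runs from transcription factors to the cytoskeleton. SOX4 and SOX11, SOX proteins of the SoxC group, bind the regulatory DNA of neuronal genes in newly postmitotic neurons, and the basic helix-loop-helix proteins NHLH1 and NHLH2 are expressed in neurons soon after their last division. Doublecortin (Dcx), neuronal class III beta-tubulin (Tubb3), the tubulin-binding stathmins (Stmn1, Stmn2) and the growth cone protein GAP-43 then build and steer the growing neurite, and the RNA-binding protein ELAVL3 regulates neuronal transcripts.

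Since WT was a lone library, its spread is unknown, and the group cannot be told apart from its litter, its dissection or its preparation. WT and FGR replicate 1 held 29129 and 34285 counts of Xist, which is transcribed from the inactive X chromosome of females, against 78 in FGR replicate 2. Counts of 4 Y-linked genes summed to 0, 9 and 9404 in WT, FGR replicate 1 and FGR replicate 2, so the FGR libraries differed from each other as the sexes do. Regional markers differed between the groups too. The summed level of 10 hypothalamus markers was 42.0 CPM in the WT library against 7.29 and 7.81 CPM in FGR, where CPM is the count relative to the library's size, scaled by the trimmed mean of M-values (TMM). The 10 genes listed as dorsal midbrain markers summed to 225.0, 321.6 and 280.2 CPM, and all 10 were detected in every library. In whole tissue, more cells of a type and more RNA per cell cannot be told apart.

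Of the 4 transcription factor genes, 3 were called higher in FGR, and 0 of the 6 cytoskeletal, growth cone and RNA-binding genes were called by edgeR. Sox11, Nhlh2 and Sox4 rose 1.48-fold, 1.36-fold and 1.27-fold by edgeR's quasi-likelihood test, and Dcx was at a fold of 1.32 without passing the threshold. Nhlh1, the remaining transcription factor gene, had WT between the FGR libraries and was not called. Tubb3, Stmn1, Stmn2, Gap43 and Elavl3 were at folds of at most 1.10 in either direction. A difference between the transcription factor genes and the others was not tested. Called means an adjusted p under 0.05 over 25561 genes. Of the 10 members, all were tested, 3 were called higher and 0 lower, where 4.25% of all genes tested were called, 1.66% higher and 2.59% lower. Higher genes were 39.0% of all calls, and 24.4% when libraries were scaled by their totals. At an unadjusted p under 0.05, 4 members were higher and 0 lower. The share of all genes at that cutoff was not counted. This count and those of the further lists below thus cannot be set against it. DESeq2 called 3 members higher (Sox11, Sox4 and Dcx) and 0 lower, where it called 2.38% of 14993 genes, 0.854% higher and 1.53% lower. With genes under a mean CPM of 1 removed, edgeR called 0 members.

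Sequences before the start sites are shown for the 3 members called by edgeR and for Dcx, which DESeq2 called. These 4 were picked by their values in these same libraries. Each line reads 5′ to 3′ from 250 bases before the RefSeq start on the GRCm38.p6 assembly and ends before the first exon that GENCODE M21 gives the gene. Capitals mark the E-box letters CANNTG, the core that basic helix-loop-helix proteins bind. The stretch of Sox11 is chr12:27342719-27342968 on the minus strand, that of Sox4 chr13:28953714-28953949 on the minus strand, that of Nhlh2 chr3:102009895-102010075 on the plus strand and that of Dcx chrX:143933312-143933469 on the minus strand.
Sox11: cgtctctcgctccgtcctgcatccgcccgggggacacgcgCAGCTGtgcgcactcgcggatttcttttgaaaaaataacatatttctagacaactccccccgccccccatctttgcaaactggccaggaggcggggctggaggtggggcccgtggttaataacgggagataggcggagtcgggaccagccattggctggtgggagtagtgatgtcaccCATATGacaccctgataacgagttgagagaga
Sox4: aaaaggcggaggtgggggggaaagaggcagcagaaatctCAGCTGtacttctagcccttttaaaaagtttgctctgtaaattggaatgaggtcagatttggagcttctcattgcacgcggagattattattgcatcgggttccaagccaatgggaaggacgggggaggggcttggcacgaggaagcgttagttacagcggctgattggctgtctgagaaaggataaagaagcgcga
Nhlh2: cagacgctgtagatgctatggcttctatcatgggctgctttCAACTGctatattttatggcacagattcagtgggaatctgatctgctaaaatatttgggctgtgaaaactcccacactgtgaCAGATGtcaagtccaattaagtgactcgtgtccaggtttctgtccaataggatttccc
Dcx: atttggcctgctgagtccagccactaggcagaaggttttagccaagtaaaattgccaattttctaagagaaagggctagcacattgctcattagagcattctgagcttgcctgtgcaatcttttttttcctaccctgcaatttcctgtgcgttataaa
Sox11 and Sox4 each held the E-box form CAGCTG, beginning 210 and 211 bases before the start. Sox11 held another E-box beginning 32 bases before the start, and the E-boxes of Nhlh2 began 209 and 127 bases before it. The stretch of Dcx held 0. Of 32851 RefSeq windows covering the 250 bases before a start, 66.2% held CANNTG and 13.0% held CAGCTG on either strand; both read the same on the other strand, and each CAGCTG is also a CANNTG. The SOX-type letters AACAAAG, searched on both strands, occurred in 5.03% of windows. Among the members they occurred only 9 bases before the second RefSeq start of Dcx, outside the stretch printed here. A match describes letters and does not show binding. RefSeq windows were found for 7 members, and Stmn1, Stmn2 and Gap43 were not among them. Of the 3 members with a window that were not called and are not printed, Tubb3 held 0 E-boxes, Nhlh1 held 1 and Elavl3 held 2. The form CAGCTG was thus not limited to members that rose: 1 E-box of Elavl3, beginning 43 bases before the start, was CAGCTG.

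Levels were compared between genes per length, as the deposited RPKM, reads per kilobase of gene length scaled to the library total. In WT, Tubb3 was the highest of the 10 at 714.4 RPKM, the 47th highest value of all genes listed, and was followed by Gap43 at 427.0, Stmn1 at 400.5 and Stmn2 at 131.3 RPKM. Dcx followed at 49.8 RPKM, Sox4 at 38.1, Elavl3 at 34.6 and Sox11 at 34.1 RPKM. Nhlh2 stood at 3.64 RPKM and Nhlh1 at 0.0998 RPKM. The order differed in the FGR libraries at 2 places. Stmn1 (404.6 and 418.4 RPKM) stood above Gap43 (399.9 and 382.6 RPKM) there. Sox11, eighth in WT, was sixth in both FGR libraries at 51.8 and 46.1 RPKM, above Sox4 at 50.2 and 43.9 RPKM. The share of all counts held by the 10 genes was 0.484% for WT, 0.505% for FGR replicate 1 and 0.489% for FGR replicate 2.

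**Figure D1:**
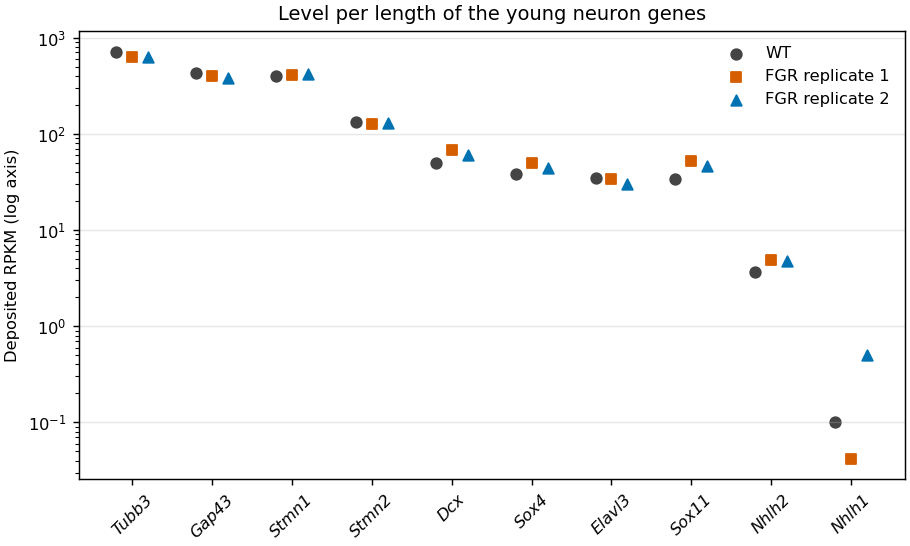
Deposited RPKM (log axis) of each of the 10 young neuron genes in the WT library (circles) and the 2 FGR libraries (squares and triangles), ordered by level in WT. The genes run from 714.4 RPKM for Tubb3 to 0.0998 RPKM for Nhlh1 in WT, and Sox11 is the gene that gains 2 places in both FGR libraries.

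Sox11 (ENSMUSG00000063632.6) was 278.1 CPM in the WT library against 433.5 and 388.0 CPM in FGR replicates 1 and 2. Both FGR libraries stood above WT, and the gap to WT was larger than the gap between them. The log2 fold change was 0.56 ± 0.10 (SE; adjusted p = 0.00572, edgeR), the smallest adjusted p among the members. Taken singly, FGR replicate 1 was 1.56-fold higher than WT (95% interval 1.53 to 1.59, counting error only) and FGR replicate 2 1.39-fold (1.36 to 1.43). The call was lost in edgeR with genes under a mean CPM of 1 removed (adjusted p = 0.0553). DESeq2 gave an adjusted p of 1.98e-06.

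Sox4 (ENSMUSG00000076431.4), the relative of Sox11 in the SoxC group, was 179.5 CPM in the WT library against 242.5 and 212.8 CPM in FGR replicates 1 and 2. The FGR libraries again stood above WT, with FGR replicate 1 the higher. The log2 fold change was 0.34 ± 0.09 (SE; adjusted p = 0.0476, edgeR), just inside the threshold. It was not called with scaling by library totals (adjusted p = 0.0705) or DESeq2 size factors (adjusted p = 0.0507), nor with the filter at a mean CPM of 1 (adjusted p = 0.131). The annotated antisense transcript Gm26735 shares 2616 exon bases with Sox4 and carried 5304 (WT), 8309 and 5883 counts (FGR replicates 1 and 2), between 54.9% and 60.5% of the Sox4 counts. No source used here says whether strand was used, so reads of the overlap cannot be assigned to either gene. The third SoxC gene, Sox12, was 31.1 CPM in the WT library against 30.9 and 30.4 CPM in FGR (adjusted p = 0.938).

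Nhlh2 (ENSMUSG00000048540.8) was 19.4 CPM in the WT library against 26.5 and 26.1 CPM in FGR. The FGR values lay within counting error of each other, at a ratio of 0.985 of replicate 2 to replicate 1 (95% interval 0.913 to 1.06), and both above WT. The log2 fold change was 0.44 ± 0.11 (SE; adjusted p = 0.0356, edgeR). DESeq2 did not call it (adjusted p = 0.155), nor did edgeR with the filter at a mean CPM of 1 (adjusted p = 0.0920).

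Nhlh1 (ENSMUSG00000051251.3), the paralog of Nhlh2, was near the detection limit, with 13 counts for WT, 6 for FGR replicate 1 and 57 for FGR replicate 2. WT lay between the FGR libraries, which differed 12.1-fold from each other (95% interval 5.21 to 34.2). The fitted log2 fold change of 1.41 ± 0.96 (SE; adjusted p = 0.486, edgeR) therefore rested on FGR replicate 2; without that library the value was -1.21. Some genes of the cerebellar granule cell lineage were also highest in FGR replicate 2. Neurod1, which drives granule neuron differentiation, was at 3.12, 3.55 and 10.1 CPM in WT and FGR replicates 1 and 2, and Zic1, a zinc finger gene of granule cell precursors, at 60.8, 56.7 and 94.5 CPM. Pax6, also expressed in granule cell precursors, was at 8.90, 7.90 and 18.4 CPM and Eomes, a factor of unipolar brush cells and cortical intermediate progenitors, at 0.427, 0.776 and 3.08 CPM. Others were not: in the same order, the synaptic organiser gene Cbln1 was at 36.6, 24.3 and 34.6 CPM and the homeobox gene Barhl2 at 11.9, 12.4 and 11.3 CPM. The 10 granule neuron markers, which do not include Pax6 and Eomes, summed to 170.0, 154.5 and 228.9 CPM, and Gabra6, a receptor subunit of mature granule neurons, had at most 3 counts in any library. Neurod1, Zic1, Pax6, Eomes, Cbln1, Barhl2 and Gabra6 were named after their values were seen, and the part of such cells in the Nhlh1 values was not tested.

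Dcx (ENSMUSG00000031285.14), the microtubule-associated protein of migrating neurons, was 618.5 CPM in the WT library against 855.6 and 776.0 CPM in FGR. Both FGR libraries lay above WT, by 1.38-fold (95% interval 1.36 to 1.40) and 1.25-fold (1.24 to 1.27). The log2 fold change was 0.40 ± 0.11 (SE; adjusted p = 0.0607, edgeR), just outside the threshold. It was called by DESeq2 (adjusted p = 0.00155), limma-voom (adjusted p = 0.00604), a robust edgeR fit (adjusted p = 0.0261), edgeR on unfiltered genes (adjusted p = 0.00229) and edgeR with a GC and length offset (adjusted p = 0.0411), where the log2 fold change was 0.28. Dcx is X-linked. The part of the sex-linked difference between the libraries in its values was not tested.

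**Figure D2:**
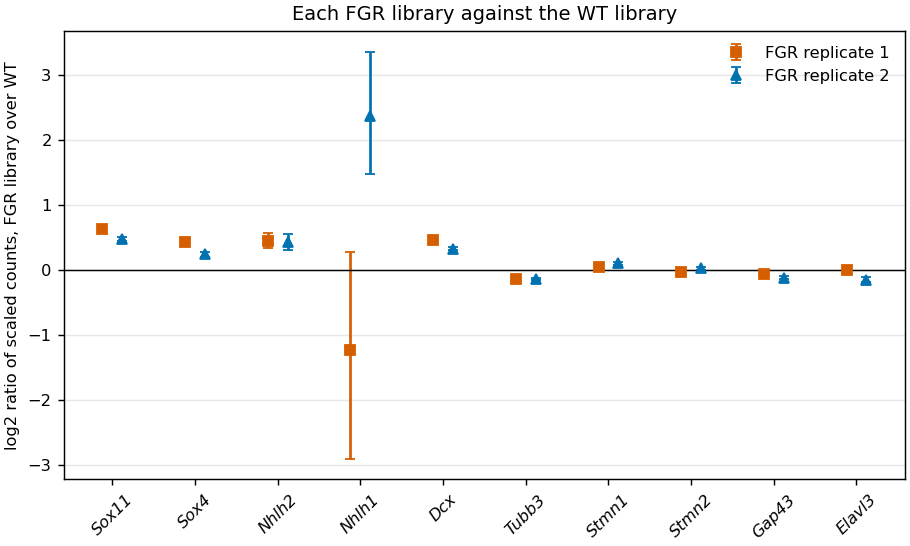
Log2 ratio of scaled counts of each FGR library (squares, replicate 1; triangles, replicate 2) to the WT library, with 95% counting intervals as bars and a line at 0, where a library equals WT. Sox11, Sox4, Nhlh2 and Dcx lie above 0 in both libraries, as does Stmn1 at 0.051 and 0.105. Tubb3 and Gap43 lie below 0 in both, as does Elavl3 at -0.0017 and -0.15. Nhlh1 has FGR replicate 1 at -1.22 and FGR replicate 2 at 2.37.

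Tubb3 (ENSMUSG00000062380.4) was 1311 CPM in the WT library against 1192 and 1187 CPM in FGR. The FGR libraries were almost level and both below WT, at 0.909 and 0.905 of its value, but the test did not call the difference (log2 fold change -0.14 ± 0.12, SE; adjusted p = 0.588, edgeR). Beta-tubulin genes share much coding sequence, and how reads matching several genes were counted is not given. Gap43 (ENSMUSG00000047261.9), which supports axon growth, was 638.8 CPM in the WT library against 613.7 and 589.5 CPM in FGR, with a log2 fold change of -0.09 ± 0.10 (SE; adjusted p = 0.714, edgeR). It lay below WT in both FGR libraries without being called.

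The stathmins bind tubulin dimers and regulate microtubule dynamics. Stmn1 (ENSMUSG00000028832.11), which dividing cells express as well, was 756.0 CPM in the WT library against 783.5 and 813.4 CPM in FGR (log2 fold change 0.08 ± 0.11, SE; adjusted p = 0.762, edgeR). Stmn2 (ENSMUSG00000027500.10), a neuronal stathmin of growth cones, was 722.6 CPM in the WT library against 709.7 and 737.2 CPM in FGR (log2 fold change 0.0017 ± 0.10, SE; adjusted p = 0.997, edgeR). Stmn1 lay above WT in both FGR libraries and Stmn2 on either side of it, neither of them called. The short annotated gene Gm23634 shares 66 bases with an exon of Stmn1 and listed 3888, 4690 and 3794 counts. How reads in the shared bases were counted is not given.

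Elavl3 (ENSMUSG00000003410.8) was 234.1 CPM in the WT library against 233.9 and 210.8 CPM in FGR. FGR replicate 1 was level with WT and FGR replicate 2 was at 0.900 of it (95% interval 0.877 to 0.925, counting error only); the log2 fold change was -0.07 ± 0.09 (SE; adjusted p = 0.714, edgeR). The gene Gm49318 shares 256 exon bases with it and listed 851, 893 and 635 counts. The paralogs Elavl2 and Elavl4, of the same neuronal RNA-binding family, were higher than WT in both FGR libraries without being called. Elavl2 was at 132.4, 169.0 and 150.6 CPM in WT and FGR replicates 1 and 2 (adjusted p = 0.0780), and Elavl4 at 136.3, 164.4 and 156.1 CPM (adjusted p = 0.0936).

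Across the 10 members, 5 were above WT in both FGR libraries and 3 were below it in both. Of all genes tested, 38.5% were above WT in both and 38.2% below in both. Neither 5 of 10 above nor 3 of 10 below is thus far from the share over all genes. The median log2 fold change of the members was 0.21, beside 0.0051 over all genes tested. It was 0.025 without FGR replicate 2 and 0.17 without FGR replicate 1, so the median depended on the library in which Nhlh1 was high. The called genes Sox11, Nhlh2 and Sox4, and Dcx, which was not called, lay at log2 fold changes of 0.34 to 0.56, and Tubb3, Stmn1, Stmn2, Gap43 and Elavl3 between -0.14 and 0.08.

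Ratios between genes within a library do not depend on how libraries are scaled against each other. The ratio of Sox11 to Tubb3, per length, was 0.0477 for WT, 0.0817 for FGR replicate 1 and 0.0734 for FGR replicate 2, that is 1.71-fold and 1.54-fold higher than in WT. The ratio of Dcx to Tubb3 was 0.0697 for WT, 0.106 for FGR replicate 1 and 0.0965 for FGR replicate 2. In both pairs the FGR libraries stood above WT. The ratio of Gap43 to Tubb3 was 0.598 for WT, 0.631 for FGR replicate 1 and 0.609 for FGR replicate 2. Its 95% counting intervals overlapped between WT (0.590 to 0.605) and FGR replicate 2 (0.600 to 0.618). Gap43 itself was below WT in both FGR libraries, at 0.960 and 0.923 of the WT value. Tubb3 was further below, at 0.909 and 0.905, and a lower Tubb3 raises each ratio taken over it. The ratio of Sox11 to Sox4 was 0.894 for WT, 1.03 for FGR replicate 1 and 1.05 for FGR replicate 2. Per length, the ratio was thus under 1 in WT and above 1 in both FGR libraries. By counts without length it was 1.55 for WT, 1.79 for FGR replicate 1 and 1.82 for FGR replicate 2. The crossing of 1 therefore rests on the gene lengths used. The ratio of Stmn2 to Stmn1 moved from 0.328 to 0.311 in both FGR libraries, and that of Elavl3 to Elavl4 from 1.34 to 1.11 and 1.06. The ratio of Nhlh2 to Nhlh1 was 36.5 for WT, 117 for FGR replicate 1 and 9.54 for FGR replicate 2, with 95% intervals as wide as 53.5 to 318 because of the low counts of Nhlh1. These ratios carry no test, since WT was 1 library.

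**Figure D3:**
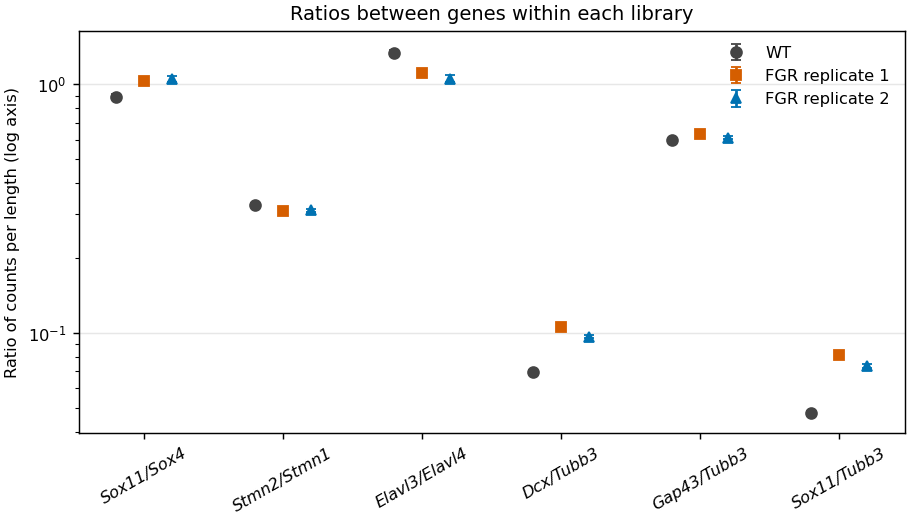
Ratio of counts per length between pairs of genes within the WT library (circles), FGR replicate 1 (squares) and FGR replicate 2 (triangles), on a log axis, with 95% binomial intervals as bars, most of them smaller than the symbols. Dcx/Tubb3 and Sox11/Tubb3 are higher in both FGR libraries than in WT, Elavl3/Elavl4 is lower in both, and Gap43/Tubb3 lies between 0.598 and 0.631.

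Other genes of neuronal differentiation were taken from lists written from textbook roles. Of 20 further proneural and neuronal transcription factor genes, 19 were tested, 3 rose and 0 fell (9 and 0 at an unadjusted p under 0.05; DESeq2 3 and 0), with a median log2 fold change of 0.24. Ebf2, an early B cell factor of differentiating neurons, rose from 19.3 CPM to 28.4 and 32.0 CPM (adjusted p = 0.00527, edgeR), and its relative Ebf3 from 97.9 CPM to 123.9 and 124.5 CPM (adjusted p = 0.0115). Lhx9, a LIM homeobox gene that is also a regional marker, rose from 105.1 CPM to 189.9 and 171.8 CPM (adjusted p = 1.02e-04). Myt1l, a zinc finger gene that represses non-neuronal genes and the most abundant of the list, was 201.1 CPM in the WT library against 230.0 and 225.7 CPM in FGR (adjusted p = 0.241). The proneural gene Neurog1, with 0 counts in every library, was not tested.

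Of 26 further genes of the growth cone and young neuron cytoskeleton, 0 rose and 2 fell (2 and 3 at an unadjusted p under 0.05; DESeq2 0 and 2), and the median was 0.0084. The genes that fell were Stmn4, a neuronal stathmin, from 97.4 CPM to 71.0 and 70.1 CPM (adjusted p = 8.10e-04, edgeR), and Dpysl5, a collapsin response mediator, from 229.4 CPM to 186.7 and 173.2 CPM (adjusted p = 0.0228). The alpha-tubulin gene Tuba1a, the most abundant, was 4822 CPM in the WT library against 5057 and 5188 CPM in FGR. Of 8 adhesion genes of young neurons 2 rose and 1 fell, with a median of -0.049. Igfbpl1, which is expressed in newborn neurons, rose from 6.43 CPM to 15.3 and 19.1 CPM (adjusted p = 2.41e-04), and Cd24a, a surface protein of young neurons, from 157.9 CPM to 209.6 and 205.2 CPM (adjusted p = 0.0106). L1cam, an axonal adhesion molecule, fell from 251.7 CPM to 184.1 and 164.9 CPM (adjusted p = 0.00272), and Ncam1 was 1001 CPM in the WT library against 984.7 and 901.7 CPM in FGR. Of 12 other neuronal RNA-binding genes, edgeR called 0 (4 higher and 3 lower at an unadjusted p under 0.05; DESeq2 0, limma-voom and a robust edgeR fit 1 higher each). The most abundant, the splicing regulator gene Rbfox2, was at 450.6, 514.2 and 501.8 CPM.

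Genes of mature neurons lay on the other side of WT from Sox11, Sox4 and Nhlh2. All 16 were below WT in both FGR libraries, against 38.2% of all genes tested, and 6 fell and 0 rose (12 and 0 at an unadjusted p under 0.05; DESeq2 3 and 0). The median log2 fold change was -0.25, and -0.22 and -0.26 in FGR replicates 1 and 2 alone. The vesicle genes Syn1 and Syn2 fell from 45.5 CPM to 34.6 and 28.8 CPM and from 118.6 CPM to 102.3 and 90.3 CPM (adjusted p = 0.0102 and 0.0435, edgeR). Thy1, a surface glycoprotein of mature neurons, fell from 37.0 CPM to 24.02 and 26.01 CPM (adjusted p = 0.00513) and the neuronal enolase gene Eno2 from 180.1 CPM to 136.8 and 132.7 CPM (adjusted p = 0.00417). Nefh, the heavy neurofilament gene, fell from 27.0 CPM to 20.7 and 18.3 CPM (adjusted p = 0.0370) and Vsnl1, a calcium sensor gene, from 92.7 CPM to 79.4 and 77.3 CPM (adjusted p = 0.0476). Nefl, the most abundant of the list, was 453.9 CPM in the WT library against 383.5 and 386.7 CPM in FGR (adjusted p = 0.173). With genes under a mean CPM of 1 removed, 2 of the 16 were called lower.

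Upstream of young neurons, 1 of 12 neural progenitor genes fell and 0 rose (1 and 0 at an unadjusted p under 0.05; DESeq2 1 and 0), with a median of -0.14. The gene that fell was Fabp7, the fatty acid binding protein of radial glia and astrocytes, from 483.0 CPM to 370.0 and 360.4 CPM (adjusted p = 0.0225, edgeR). Of 10 cell cycle genes, 9 were below WT in both FGR libraries, against 38.2% of all genes tested. Among them 1 fell, the mitotic cyclin gene Ccnb1, from 7.38 CPM to 3.69 and 4.94 CPM (adjusted p = 0.0281, edgeR). DESeq2 did not call it. The libraries differed here. The median log2 ratio of the cell cycle genes to WT was -1.01 for FGR replicate 1 and -0.22 for FGR replicate 2, and the replication clamp gene Pcna was at 49.1, 45.3 and 49.9 CPM.

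**Figure D4:**
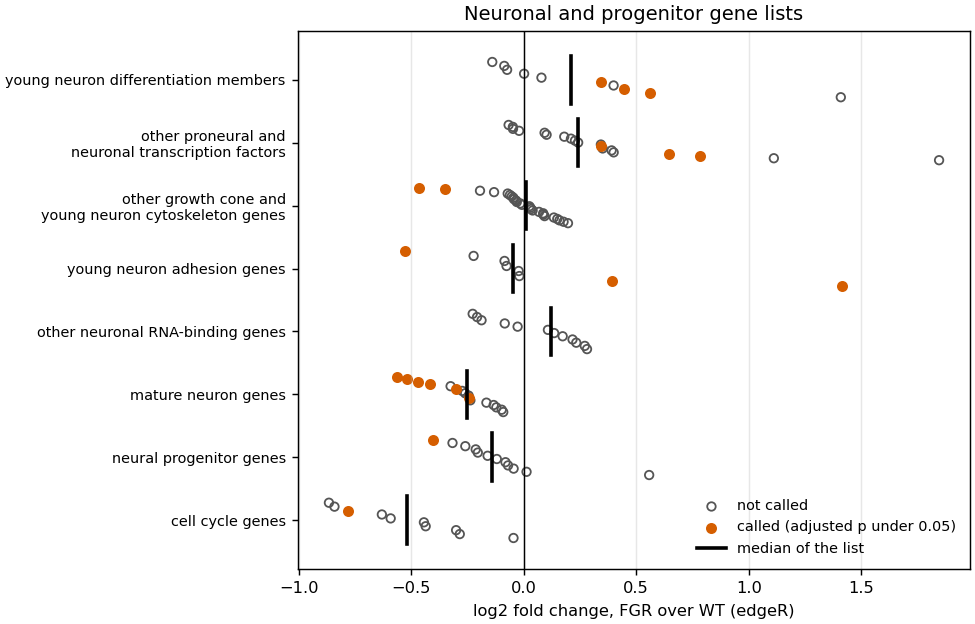
Log2 fold change of FGR over WT by edgeR for each tested gene (points) of the 10 young neuron genes and 7 further lists; filled points were called at an adjusted p under 0.05 and black bars mark list medians. The median is 0.21 for the young neuron genes, 0.24 for other transcription factors, 0.0084 for the cytoskeleton and -0.25 for mature neuron genes.

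Markers of other cells and regions moved with the group as well, and their part in the values of the 10 genes was not tested. Summed levels in WT, FGR replicate 1 and FGR replicate 2 were 913.1, 713.4 and 769.3 CPM for 8 astrocyte markers (3 fell) and 444.6, 351.4 and 366.3 CPM for 8 oligodendrocyte lineage markers (3 fell). For 8 microglia markers they were 112.2, 73.7 and 81.6 CPM (4 fell), for 8 endothelial and mural markers 232.8, 181.4 and 176.1 CPM (4 fell), and for 8 meningeal fibroblast markers 911.4, 356.8 and 581.2 CPM (7 fell). DESeq2 called 2, 3, 1, 1 and 0 members of these lists lower, in the same order, and the filter at a mean CPM of 1 left 2, 2, 1, 1 and 0. In that order, a robust edgeR fit called 1, 3, 5, 4 and 0 lower, and limma-voom 4, 3, 5, 3 and 8. None of these lists had a member at 0 counts, and none had a member that rose. Of the regional lists, that of 10 dorsal midbrain markers had 4 that rose, Tfap2b, Tfap2d, En1 and En2. Whether each gene of that list is limited to the dorsal midbrain was not checked. Of 10 hindbrain markers 4 rose, with sums of 8.88, 18.4 and 18.1 CPM; the Hox genes Hoxb2, Hoxa3, Hoxb4 and Hoxd3 had 0 counts in WT. In the list of 10 forebrain neuron markers 3 fell, with sums of 23.9, 11.6 and 16.0 CPM, and Dlx6 had 0 counts in either FGR library. In that of 10 hypothalamus markers 7 fell, with Nkx2-4, Rax, Oxt and Fezf1 at 0 counts in at least 1 FGR library. DESeq2 called 2 dorsal midbrain and 1 hindbrain marker higher, and 0 forebrain and 2 hypothalamus markers lower. Barhl1 was the 1 of 10 granule neuron markers that rose, from 15.1 CPM to 25.5 and 25.6 CPM (adjusted p = 0.00224, edgeR).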

How the data were processed

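RNA sequencing of midbrain total RNA from postnatal day 3 mice gave 1 WT and 2 FGR libraries, grouped by sample title. Per the labels' protocols, RNA was extracted with Trizol and a TruSeq RNA kit was used for the libraries. The aligner HISAT2 appears without a version in the submitters' processing notes, and the counting tool, strand setting and genome build were not given in the sources used here. The deposited tables give raw counts per gene and a gene length, and the authors' deposited RPKM values deviated by at most 0.000498% from values recomputed with those counts and lengths; RPKM was used to compare levels between genes.

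Counts were fitted with edgeR 4.0.16 under R 4.3.3 (genes kept by filterByExpr at a minimum count of 10; TMM scaling; two-sided quasi-likelihood test of FGR against WT; Benjamini-Hochberg over 25561 genes; threshold 0.05). The fit had 1 residual degree of freedom, from the FGR pair, so WT was assumed to vary like FGR. The FGR pair differed in Xist and Y-linked counts, so its spread cannot be told apart from a difference between the sexes. The labels do not say that libraries came from separate animals, so p-values cover only the spread among these libraries. SE is the log2 fold change over the root of the F statistic. Single-library ratios carry exact 95% binomial (Clopper-Pearson) intervals, which cover counting error only. The fit was also run on simulated counts drawn with the same spread for WT and FGR. That run cannot check whether WT varies like FGR. Alternatives used DESeq2 1.42.0, limma-voom (limma 3.58.1), other scalings and filters, a GC and length offset, and removal of genes or libraries.

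The members and lists were chosen with earlier results of these data known. All 10 members were named, with every called gene and the most abundant gene (by mean CPM) of each further neuronal list, and sums of marker lists. Sox12, Elavl2, genes of the granule cell lineage, the dorsal midbrain markers that rose and the genes at 0 were named outside this rule, after their values were seen. In GENCODE M21, 49326 of the gene identifiers were found once versions were dropped; start-site sequences are from RefSeq, GRCm38.p6.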

Additional observations from a re-analysis of the deposited data

How the results depend on the processing

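No paired analysis was possible because WT was 1 library and the labels name no litter by which to pair. Removing either FGR library left 1 library in each group, which gives values without a test. Of the 11 alternatives with a test, Sox11 was called in 10, Nhlh2 in 9 and Sox4 in 6, and Dcx was called in 5 of 10. With genes under a mean CPM of 1 removed, 0 members were called, against 3. Nhlh1 is left out there, and the median log2 fold change of the 9 members kept was 0.072. The log2 fold change of Sox11 was 0.56 with this filter and in the main fit, and that of Nhlh2 was 0.44 in both. Over all genes, 100 were called higher and 201 lower, against 424 and 663. Without a filter 695 genes were higher and 1362 lower, with DESeq2 128 and 229, and with scaling by library totals 332 and 1027. Protein-coding genes alone, an alternative chosen after seeing the data, left Sox4 uncalled (adjusted p = 0.0505), as did removal of abundant small RNA genes (adjusted p = 0.0548). The median of the members was 0.078 without X- and Y-linked genes, where Dcx is left out, and ranged from 0.025 to 0.17 with an FGR library left out. Stmn2, at 0.0017, changed sign with DESeq2 size factors (-0.0024), library totals (-0.038), no filter (-0.014), the filter at a mean CPM of 1 (-0.0055), DESeq2 (-0.0026), removal of abundant small RNA genes (-0.0084) and the GC and length offset (-0.072). Gene length cancels from the log2 changes of the within-library ratios, so leaving it out is no check of them. The cause of these differences was not tested. Depth limits Nhlh1, which had 6 counts in 1 library.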
